A study of Mus musculus with 12 samples.

Results

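Effector memory (TEM) YFP+ CD4+ T cells were compared with their naïve YFP+ counterparts, all sorted from spleens of the *Gr/fr* line, in which past GM-CSF production is recorded. The comparison held 6 of the 12 RNA-seq libraries, the 3 titled Effector/Memory YFP+ and the 3 titled Naïve YFP+, and it covered all 15587 genes that passed the filter on low values out of 17523 in the table. The sort set TEM cells apart as CD44hi and naïve cells as CD44-, among other surface markers. The other 6 libraries, TEM YFP- and naïve YFP- cells, entered the shared estimate of the spread and are used below to ask whether the memory against naïve difference was the same in cells without the YFP mark.

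All 4 groups were C57BL/6 mice aged 2-3 months that carried the same alleles. In the *Gr* allele, *Csf2*, the GM-CSF gene, is followed by iCre and a blue fluorescent protein, and the Rosa26 locus carries eYFP that Cre switches on. A cell in which *Csf2* was once transcribed strongly enough to give Cre, and every cell that descends from it, is therefore YFP+ whether or not it still makes GM-CSF. The YFP mark gives no date for that event, and it can have been set before a cell became naïve or memory. The study names neither Foxp3 nor CD25 for the sort of these libraries, so regulatory T cells could be in both gates. The labels number the libraries 1 to 3 in each group and do not say which animals gave them, so the p-values measure the spread between libraries. The study names as many mice as a group has libraries, so libraries with the same number may come from the same animal. The main fit treated all libraries as unpaired.

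Naïve CD4+ T cells recirculate through lymph nodes, which they enter with the help of CCR7 and leave with the sphingosine phosphate receptor S1PR1, and a set of transcription factors that includes TCF1, LEF1, KLF2 and FOXO1 keeps them quiescent. After activation, memory cells lose much of this program, acquire receptors for inflamed tissue and settle into helper fates that T-bet, GATA3, BCL6 and FOXP3 direct. GM-CSF, a cytokine that activates myeloid cells, is made by several of these helper fates. Bulk libraries average over such mixtures, and a higher share of cells that express a gene cannot be told apart from more RNA of it per cell.

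The 6 YFP+ libraries held 41438995 to 50339210 reads on genes. Log2 values of libraries of the same group correlated across genes at Pearson's r of 0.967 to 0.983 in naïve cells and 0.974 to 0.980 in TEM cells, and genes are not independent replicates. *Cd4* had normalized counts of 59179, 67141 and 54143 in the TEM libraries and 49391, 36078 and 41308 in the naive libraries, and *Cd3e*, a chain of the T cell receptor complex, had 44656, 47263 and 39632 in the TEM libraries and 41128, 30224 and 35036 in the naive libraries, so both groups carried the defining transcripts of CD4+ T cells. *Cd8a*, which marks CD8 T cells, had 58.6, 13.5 and 61.8 in the TEM libraries and 21, 75.8 and 35.3 in the naive libraries. *Cd44*, used in the sort and therefore no finding, followed its gate and had 29383, 24987 and 26214 in the TEM libraries and 3372, 2334 and 3115 in the naive libraries.

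Naïve YFP+ replicate 2 stood apart. On the first principal component of all 12 libraries it lay at -59.9, against -113 and -115 for the other naïve YFP+ libraries, and 16499 genes had a read in it, against 15539 and 15620. Genes called higher in TEM cells were raised in it by a median of 0.346 on the log2 scale relative to the mean of naïve replicates 1 and 3. Transcripts of monocytes and macrophages, erythroid cells and dendritic cells were also raised in it, with values given below, and their part in the results was not tested. The counts over all genes, and those list counts that moved by 3 or more members or from 0 without that library, are also given without it. Replicate 3 of every group differed from replicates 1 and 2 in sex-linked transcripts. *Xist*, the RNA of the inactive X chromosome, which overlaps *Tsix*, was at or under 24.7 normalized counts in replicate 3 and at or above 11867 in the others, and the Y-linked *Ddx3y* was at or above 3869 in replicate 3 and at or under 1.06 in the others, over all 12 libraries. TEM YFP+ replicate 2 differed from its group too, among others in genes of follicular helper cells, as the values below show.

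With the 3 naïve libraries, 3319 genes were called, with an adjusted p of at most 0.05 (limma on log2 of the normalized count plus 1, Benjamini-Hochberg over 15587 genes) and a log2 fold change of at least 1 in either direction. Of these, 2538 genes were higher in TEM cells, 16.3% of all genes tested, and 781 were lower, 5.01%. By the adjusted p alone, 3849 genes (24.7%) were higher and 2604 (16.7%) lower. The TEM and naïve libraries did not overlap for 7593 genes, 48.7% of those tested, and for 3212 of the 3319 called genes. Leaving out naïve replicate 2 gave 2855 higher and 726 lower, and 3098 of the 3319 genes were called again.

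With the deposited scaling 76.5% of called genes were higher and the median log2 fold change of all genes was 0.033. The share was 76.1% with TMM factors, 75.2% with values centred on the median of all genes and 81.2% with equal totals, which moved that median to 0.15, and it was 75.7% with edgeR and 75.8% with DESeq2. Quantile normalization turned the excess of higher calls and gave 1823 higher and 2043 lower genes, of which 47.2% were higher, and moved that median to -0.14. Among the 3118 genes with the lowest mean counts the median moved from 0.51 to -0.51. Of the 3319 called genes, 2565 were called under quantile normalization too, and among the genes described below *Il7r*, *Il2rg* and *Lck*, which did not pass with the deposited scaling, passed as higher under it. None of the genes below that are said to be higher or lower changed sign under another scaling.

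**Figure D1:**
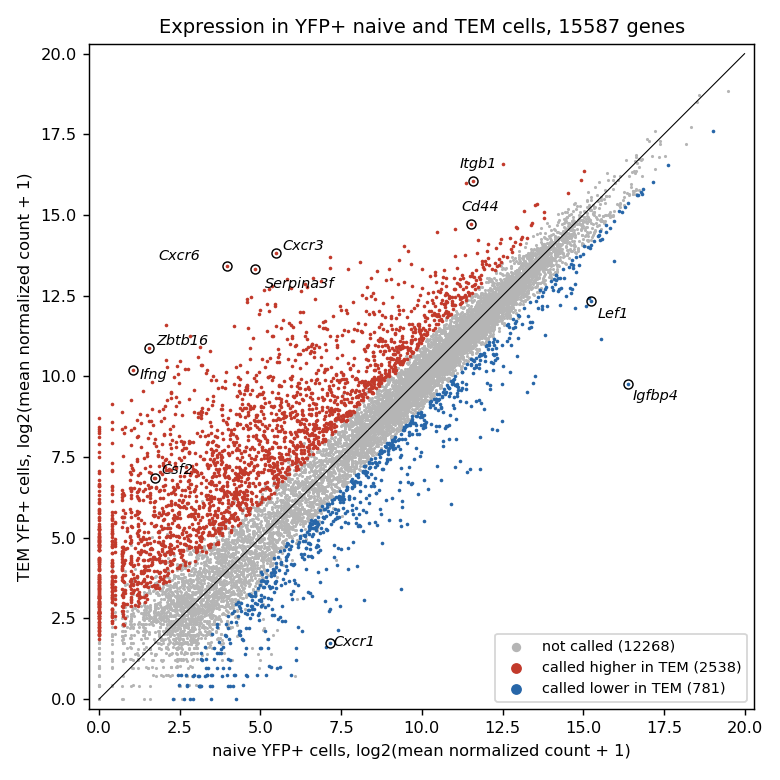
Mean normalized count of each of 15587 genes in naïve YFP+ cells (x axis) and TEM YFP+ cells (y axis), both as log2 of the mean plus 1, with 3 libraries a group. Red points are the 2538 genes called higher in TEM cells, blue points the 781 called lower, grey points the genes not called, and the line marks equal values. The red points reach farther from the line than the blue ones, mainly at low naïve counts.

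The called genes differed in size as well as number. Genes called higher had a median log2 fold change of 2.70, and 1117 of them reached 3 or more. Genes called lower had a median of -1.55, and 93 reached -3 or less. In 173 of the genes called higher, not a single read was counted in the 3 naïve libraries. Genes called higher took 7.62 to 8.52% of all reads in TEM libraries and 1.66 to 1.93% in naïve libraries, whereas genes called lower took 3.54 to 4.17% in TEM and 8.50 to 9.56% in naïve libraries.

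Called genes whose groups did not overlap and whose mean over the 6 libraries reached 50 normalized counts were ranked by fold change, and the largest increase was that of *Serpina3f* (chr12:104214544-104221129, GRCm38.p6). It encodes a secreted inhibitor of proteases in a cluster of closely related *Serpina3* genes, so reads may have been shared among copies. It had 14149, 7060.5 and 9672 in the TEM libraries and 7.42, 73.8 and 1.86 in the naive libraries (log2 fold change 9.67, SE 0.92, adjusted p = 4.0e-06). Every TEM library was far above the highest naïve library, which was the naïve replicate 2 that stood apart. The RefSeq promoter window of *Serpina3f*, from 250 bases before to 50 bases after its start, is shown because it belongs to the gene with the largest rise, at chr12:104214294-104214593 on the plus strand.

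Serpina3f: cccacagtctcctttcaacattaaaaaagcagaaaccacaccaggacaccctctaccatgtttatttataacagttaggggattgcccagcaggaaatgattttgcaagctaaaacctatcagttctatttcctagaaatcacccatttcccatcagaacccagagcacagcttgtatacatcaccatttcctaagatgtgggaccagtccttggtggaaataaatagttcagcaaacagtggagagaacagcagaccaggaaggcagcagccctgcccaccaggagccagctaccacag

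*Zbtb16* (chr9:48651797-48836225), which encodes PLZF, the transcription factor that directs innate-like T cells, had 2655, 884 and 2088 in the TEM libraries and 0, 4.92 and 0.93 in the naive libraries (log2 fold change 9.56, SE 0.66, adjusted p = 2.8e-07). TEM replicate 2 held less of it than the other TEM libraries and still far more than any naïve library. *Cxcr6* (chr9:123806477-123811754), the receptor for CXCL16 that retains T cells in liver and lung, had 12574, 6095 and 14100.2 in the TEM libraries and 13.6, 16.7 and 13 in the naive libraries (log2 fold change 9.38, SE 0.35, adjusted p = 2.9e-09). Its naïve libraries were close to each other, and TEM replicate 2 was again the lowest of the TEM libraries.

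*Ifng* (chr10:118441046-118445894), the cytokine of Th1 cells, had 536, 1930.3 and 1073 in the TEM libraries and 1.24, 1.97 and 0 in the naive libraries (log2 fold change 9.11, SE 0.72, adjusted p = 8.4e-07), and TEM replicate 2 was here the highest. The naïve libraries held 3 *Ifng* reads in sum, and the ratio of counts was 1117 with an exact 95% interval of 382 to 5419.6 that covers counting error only. *Xcl1* (chr1:164931644-164935522), a chemokine that attracts cross-presenting dendritic cells, had 575, 369.7 and 759 in the TEM libraries and 0, 0 and 0.93 in the naive libraries (log2 fold change 8.78, SE 0.47, adjusted p = 3.8e-08). *Mmp9* (chr2:164940326-164955850), a gelatinase that neutrophils also make, had 5501, 2304 and 8277 in the TEM libraries and 2.47, 63 and 2.79 in the naive libraries (log2 fold change 8.96, SE 0.89, adjusted p = 6.3e-06). *S100a8*, another neutrophil transcript, stayed at or under 48.5 normalized counts in TEM libraries. Of 8 neutrophil genes tested, 1 was higher with all libraries (12.5%, against 24.7% of all genes) and 5 without naïve replicate 2. The part of neutrophils in these values was not tested.

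The chemokine receptor *Cxcr3* (chrX:101731535-101734147), which responds to the interferon-induced chemokines CXCL9 and CXCL10, had 15086, 13717 and 14376 in the TEM libraries and 34.6, 70.8 and 26 in the naive libraries (log2 fold change 8.45, SE 0.33, adjusted p = 3.8e-09). The TEM libraries hardly varied. *Itga1* (chr13:114958079-115101964), the collagen-binding integrin chain CD49a of tissue-resident cells, had 1924, 990.0 and 2345 in the TEM libraries and 0, 28.5 and 0.93 in the naive libraries (log2 fold change 8.74, SE 0.98, adjusted p = 1.7e-05), and most of its naïve reads were in replicate 2. *Il23r* (chr6:67422932-67491855), the receptor chain through which IL-23 acts on Th17 cells, had 387, 199.9 and 362 in TEM libraries and no read in naïve libraries, which makes it at least 301-fold higher against a floor of 3 reads over the naïve group. The same held for the keratin gene *Krt83* (at least 329-fold) and for *Gm2663* (at least 315-fold), a predicted gene inside the T cell receptor beta locus.

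The other genes among the 15 largest increases were *Sostdc1*, *Edn3*, *Arnt2* and *St6galnac1*. *Sostdc1*, a secreted antagonist of bone morphogenetic proteins that follicular helper cells express, had 1252, 7548 and 449.6 in the TEM libraries and 0, 7.87 and 1.86 in the naive libraries (log2 fold change 9.11, SE 1.14, adjusted p = 4.2e-05), and TEM replicate 2 held most of it. *Edn3*, the peptide endothelin 3, had 643, 1003 and 597 in the TEM libraries and 3.71, 0 and 0.93 in the naive libraries. *Arnt2*, a transcription factor of the bHLH-PAS family, had 1021, 1773 and 932 in the TEM libraries and 4.95, 3.94 and 0.93 in the naive libraries. *St6galnac1*, a sialyltransferase, had 465, 281 and 403 in the TEM libraries and 0, 0 and 0.93 in the naive libraries. In all of the 15, the lowest TEM library exceeded the highest naïve library, as the rule required. *Zbtb16*, *Cxcr6*, *Itga1*, *Gm2663* and *Arnt2* overlap other annotated genes, and the strand setting of the counting is not given in the sources used here.

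**Figure D2:**
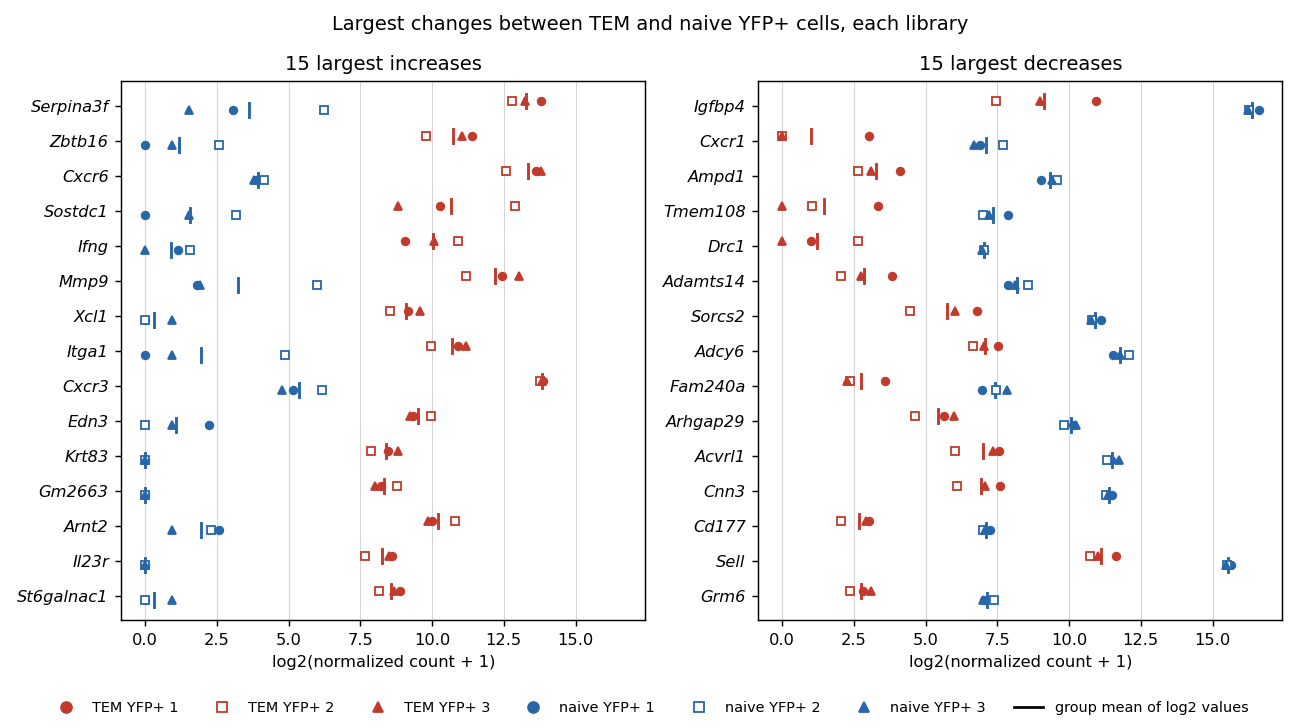
Log2 of the normalized count plus 1 in each YFP+ library for the 15 largest increases (left) and the 15 largest decreases (right), with TEM libraries in red, naïve libraries in blue, a marker shape for each replicate number and a bar for the group mean of the log2 values. Naïve replicate 2, drawn as an open blue square, lies above the other naïve libraries for several increases such as *Serpina3f*, *Mmp9* and *Itga1*.

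The largest decrease was that of *Igfbp4* (chr11:99040005-99052655), which binds insulin-like growth factors and is a known naïve T cell transcript. It had 1955, 175 and 503 in the TEM libraries and 99588, 78511 and 76444 in the naive libraries (log2 fold change -7.24, SE 0.61, adjusted p = 1.5e-06), and TEM replicate 1 kept the most of it. Its RefSeq promoter window at chr11:99040994-99041293, plus strand, is shown for comparison with that of *Serpina3f*, and the capitals mark the only match to the motifs searched, a T-box match that begins 71 bases before the start. That start, at position 99041244, lies 1239 bases inside the span that RefSeq gives for the gene, so another annotated start is farther upstream.

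Igfbp4: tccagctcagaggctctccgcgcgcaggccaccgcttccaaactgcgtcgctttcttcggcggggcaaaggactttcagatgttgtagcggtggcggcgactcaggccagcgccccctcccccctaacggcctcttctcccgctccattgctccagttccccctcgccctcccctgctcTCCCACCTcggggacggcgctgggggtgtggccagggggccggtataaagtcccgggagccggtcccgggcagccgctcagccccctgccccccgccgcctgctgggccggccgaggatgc

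Of the other large decreases, *Ampd1*, AMP deaminase, had 16.2, 5.18 and 7.6 in the TEM libraries and 522, 761 and 674 in the naive libraries (log2 fold change -6.06, SE 0.39, adjusted p = 1.5e-07). *Adcy6*, an adenylyl cyclase that makes cyclic AMP, had 184, 100.5 and 129 in the TEM libraries and 2951, 4297 and 3466 in the naive libraries (log2 fold change -4.71, SE 0.25, adjusted p = 3.8e-08). *Acvrl1*, a type I receptor of the TGF-β family, had 188, 64.2 and 163 in the TEM libraries and 2781, 2530.4 and 3412 in the naive libraries (log2 fold change -4.51, SE 0.37, adjusted p = 1.2e-06). All 3 were present in every naïve library and at or under 188 normalized counts in every TEM library. *Cnn3*, an actin-binding calponin, had 193, 67.3 and 134 in the TEM libraries and 2914, 2478 and 2625 in the naive libraries. *Arhgap29*, a GTPase-activating protein, had 48.5, 23.8 and 62.7 in the TEM libraries and 1112, 908 and 1214 in the naive libraries. *Sorcs2*, a sorting receptor of the sortilin family, had 110.2, 20.7 and 64.6 in the TEM libraries and 2184, 1796 and 1740.2 in the naive libraries. Genes with fewer reads in naïve cells completed the list, namely *Cxcr1*, *Tmem108*, *Drc1*, *Adamts14*, *Fam240a*, *Cd177* and *Grm6*, none of which exceeded 16.2 normalized counts in a TEM library.

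The promoters of called genes were searched for 4 short motifs on both strands. RefSeq windows matched 11419 of the 15587 tested genes, and the first window listed for each gene was used. The AP-1 motif TGANTCA was in 7.31% of the windows of genes called higher, 6.22% of those called lower and 5.11% of those of all tested genes. Among all 27025 genes with a RefSeq window the share was 7.93%. The T-box motif AGGTGNGA was in 4.96%, 8.04%, 4.82% and 5.29% in the same order. The TCF/LEF motif CTTTGAT was in 2.67%, 1.65%, 2.56% and 3.72%, and the forkhead motif GTAAACA in 3.15%, 3.29%, 2.51% and 3.55%. These shares describe letters in short windows and were not tested.

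Of 26 genes of naïve homing and quiescence, all tested, 16 were lower in TEM cells by the adjusted p (61.5%, against 16.7% of all genes). In the other direction 1 was higher (3.85%, against 24.7%), and 9 did not pass. The median log2 fold change was -1.12 against 0.033 over all genes. The lists described from here on were chosen with results of these data known, so their counts describe and do not test. *Lef1* had 6734, 3968 and 4676 in the TEM libraries and 50088, 32277 and 34648 in the naive libraries (log2 fold change -2.94, SE 0.22, adjusted p = 4.6e-07). *Ccr7*, the lymph node homing receptor, had 6064, 3673 and 3686 in the TEM libraries and 36854, 23046 and 22212 in the naive libraries (log2 fold change -2.61, SE 0.25, adjusted p = 3.8e-06). *Tcf7*, which encodes TCF1, remained abundant in TEM cells, with 68076, 70451 and 61078 in the TEM libraries and 165215, 135506 and 137488 in the naive libraries (log2 fold change -1.13, SE 0.14, adjusted p = 4.2e-05). None of these 3 overlapped between the groups, which was also the case for 48.7% of all genes tested.

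*Klf2* (log2 fold change -1.11) and its target *S1pr1* (-1.21), *Foxo1* (-1.12) and *Foxp1* (-1.13) were lower by similar amounts. *Bach2*, a repressor of effector genes (-2.52), *Satb1*, a chromatin organizer (-2.46), *Actn1* (-2.77) and *Dapl1* (-4.01) were lower by more. *Il7r*, the receptor chain for the survival cytokine IL-7, had 77244, 56981 and 72884 in the TEM libraries and 69377, 69958 and 69046 in the naive libraries and did not pass (adjusted p = 0.91). *Ccr9*, a gut homing receptor placed in this list as a thymic emigrant gene, was the member that was higher, with 2826, 1096 and 3405 in the TEM libraries and 76.7, 60 and 47.4 in the naive libraries (log2 fold change 5.16, SE 0.41, adjusted p = 9.6e-07).

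Of 25 transcription factors of helper lineages, 23 were higher (92%, against 24.7% of all genes) and 0 lower (against 16.7%). The median log2 fold change was 3.40. *Tbx21*, which encodes T-bet of Th1 cells, had 3890.4, 3418 and 4363 in the TEM libraries and 27.2, 24.6 and 39.1 in the naive libraries (log2 fold change 6.98, SE 0.19, adjusted p = 2.3e-10). *Gata3*, the Th2 factor that naïve cells also need, had 12839, 9559 and 11513 in the TEM libraries and 4514, 3599.9 and 4911 in the naive libraries (log2 fold change 1.38, SE 0.18, adjusted p = 4.9e-05). *Foxp3* of regulatory T cells had 9695, 6198 and 10484 in the TEM libraries and 1256, 1087 and 1309 in the naive libraries (log2 fold change 2.82, SE 0.24, adjusted p = 1.4e-06). All of these were higher in every TEM library than in any naïve library, and the groups did not overlap for 48.7% of all genes tested either. The TEM libraries held transcripts of several helper fates at once, and *Gata3* and *Foxp3* had reads in every naïve library too.

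*Bhlhe40*, a factor that promotes GM-CSF production in T helper cells, had 7959.7, 11068 and 4856 in the TEM libraries and 96.5, 195 and 59.5 in the naive libraries (log2 fold change 6.17, SE 0.40, adjusted p = 1.8e-07). *Maf*, which drives IL-10 and IL-21, had 12836, 24173 and 13184 in the TEM libraries and 650.5, 919 and 527 in the naive libraries (log2 fold change 4.55, SE 0.26, adjusted p = 6.1e-08). *Id2*, an inhibitor of E proteins, had 27568, 18185 and 27353 in the TEM libraries and 2116, 2173 and 2009 in the naive libraries (log2 fold change 3.51, SE 0.15, adjusted p = 6.7e-09). *Runx2* (5.94), *Zbtb32* (7.07), *Ahr* (3.59), *Rora* (3.98) and *Ikzf2* (4.30) were also higher. *Bcl6* of follicular helper cells had 2121, 4696 and 2444 in the TEM libraries and 1501, 1721 and 1727 in the naive libraries (log2 fold change 0.82, SE 0.24, adjusted p = 0.0162), but its adjusted p was 0.0507 without naïve YFP+ replicate 1. The 2 that did not pass were *Runx1* (adjusted p = 0.57) and *Runx3* (adjusted p = 0.36).

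Of 26 cytokine genes listed, 22 were tested, and 17 of these were higher in TEM cells (77.3%, against 24.7% of all genes). In the other direction 0 were lower (against 16.7%), and the median was 3.91. *Csf2* itself had 139, 55.9 and 152 in the TEM libraries and 1.24, 3.94 and 1.86 in the naive libraries (log2 fold change 5.08, SE 0.68, adjusted p = 7.4e-05). Both groups were sorted on YFP, the mark of past *Csf2* transcription, and yet current *Csf2* transcripts were at or under 3.94 normalized counts in naïve libraries. *Il21*, which supports B cell help, had 882, 5965 and 541 in the TEM libraries and 2.47, 13.8 and 1.86 in the naive libraries (log2 fold change 8.07, SE 1.12, adjusted p = 9.7e-05). *Il10* had 185, 943 and 123 in TEM libraries and no read in naïve libraries (at least 397-fold higher).

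*Il4* had 78.9, 139.8 and 154 in the TEM libraries and 0, 2.95 and 0 in the naive libraries (log2 fold change 6.25, SE 0.58, adjusted p = 3.5e-06). *Il2*, the growth factor that activated T cells release, had 118, 125 and 263 in the TEM libraries and 7.42, 5.9 and 0.93 in the naive libraries (log2 fold change 5.04, SE 0.57, adjusted p = 1.8e-05). *Tnf*, already transcribed in naïve cells, had 730.0, 1460.2 and 1268 in the TEM libraries and 163, 305 and 459 in the naive libraries (log2 fold change 1.96, SE 0.34, adjusted p = 5.6e-04). The ligands *Tnfsf14* (6.90), *Tnfsf11* (4.81), *Fasl* (2.35) and *Csf1* (4.40) and the enkephalin precursor *Penk* (6.20) were higher too. The 5 tested genes that did not pass were *Il17f* (adjusted p = 0.0563), *Lta* (0.21), *Ltb* (0.69), *Tgfb1* (0.19) and *Il16* (0.94). *Il17a*, *Il5* and *Il6* did not reach the filter on low values, so at this depth no difference was detectable for them, and *Il3* had no row in the table.

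Cytokine receptors changed in both directions. Of 31 genes, 18 were higher (58.1%, against 24.7% of all genes) and 6 lower (19.4%, near the 16.7% of all genes). *Il2rb*, the beta chain shared by the receptors of IL-2 and IL-15, had 84391, 53436 and 59662 in the TEM libraries and 2733, 2809.9 and 2345 in the naive libraries (log2 fold change 4.62, SE 0.16, adjusted p = 1.6e-09). *Il2ra*, the high-affinity IL-2 receptor chain CD25, had 9016, 5136 and 9195 in the TEM libraries and 655, 559.8 and 898 in the naive libraries (log2 fold change 3.44, SE 0.26, adjusted p = 5.1e-07). *Il12rb1* (4.58), *Il12rb2* (6.87), *Il18rap* (5.99), *Il1r1* (5.62) and *Il1rl1* (5.22), receptor chains for IL-12, IL-18, IL-1 and IL-33, were higher as well. *Il9r* (5.49), *Il17re* (7.86) and *Il10ra* (2.04) followed the same direction.

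The receptors that were lower in TEM cells were *Ifngr2* (640.0, 351 and 524 in the TEM libraries and 4899.7, 3389 and 3468 in the naive libraries; log2 fold change -2.98, SE 0.27, adjusted p = 2.8e-06), *Il4ra* (8912, 4688 and 6411 in the TEM libraries and 29446, 24341 and 23276 in the naive libraries; log2 fold change -1.99, SE 0.19, adjusted p = 4.7e-06), *Il6ra* (-1.04), *Il6st* (-1.05), *Il17ra* (-0.82) and *Il21r* (-0.74). *Ifngr2* is the chain that limits the response to interferon-gamma, and *Il6ra* and *Il6st* form the IL-6 receptor. *Il2rg*, the common gamma chain, had 32488, 27268 and 30161 in the TEM libraries and 32974, 27023 and 30148 in the naive libraries and did not pass (adjusted p = 0.99). Of 20 STAT and SOCS pathway genes, 8 were higher (40%, against 24.7% of all genes) and 4 lower (20%, near the 16.7% of all genes). *Socs2* had 1879, 1544 and 2159.6 in the TEM libraries and 34.6, 47.2 and 55.8 in the naive libraries (log2 fold change 5.32, SE 0.22, adjusted p = 5.8e-09) and *Cish* had 4471, 3396 and 5048 in the TEM libraries and 627, 722 and 688 in the naive libraries (log2 fold change 2.65, SE 0.16, adjusted p = 7.6e-08), both feedback inhibitors induced by STAT5, whereas *Socs3*, induced by STAT3, had 4524, 9850.3 and 4651 in the TEM libraries and 17113, 26046 and 14440.0 in the naive libraries (log2 fold change -1.65, SE 0.34, adjusted p = 0.00177).

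Of 24 receptors for chemokines and for exit from lymphoid tissue, 16 were higher (66.7%, against 24.7% of all genes). Another 3 were lower (12.5%, under the 16.7% of all genes), and the median was 4.35. Without naïve replicate 2, 19 were higher. Beside *Cxcr6* and *Cxcr3*, *Ccr2* had 7276, 4476 and 7709.8 in the TEM libraries and 16.1, 71.8 and 13 in the naive libraries (log2 fold change 7.93, SE 0.49, adjusted p = 1.1e-07), and *Ccr4*, a receptor of Th2 and skin-homing cells, had 4948, 2601 and 6509 in the TEM libraries and 18.6, 56.1 and 52.1 in the naive libraries (log2 fold change 6.81, SE 0.45, adjusted p = 1.8e-07). *Ccr6*, the CCL20 receptor of Th17 cells, had 3388, 1947 and 3707 in the TEM libraries and 30.9, 77.7 and 21.4 in the naive libraries (log2 fold change 6.24, SE 0.57, adjusted p = 3.0e-06). *Ccr10* had 306, 175 and 639 in the TEM libraries and 2.47, 1.97 and 0 in the naive libraries (log2 fold change 7.23, SE 0.64, adjusted p = 2.4e-06). These receptors direct cells to different tissues, and each was at or under 77.7 normalized counts in every naïve library.

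*Ccr8* (4.23), *Cxcr5* (4.02), *Gpr15* (4.49), *Ltb4r1* (7.35) and *Cx3cr1* (4.31) were also higher. The 3 that were lower were *Ccr7*, *S1pr1* and *Gpr183* (-0.62), an oxysterol receptor that positions cells in lymphoid tissue. *Cxcr4* had 7732, 13234 and 6925 in the TEM libraries and 10671, 9779 and 11917 in the naive libraries and did not pass (adjusted p = 0.33). Of 12 chemokine genes tested, 6 were higher (50%, against 24.7% of all genes) and none lower, and 9 were higher without naïve replicate 2. *Ccl5* had 5835, 2759 and 4087 in the TEM libraries and 14.8, 59 and 18.6 in the naive libraries (log2 fold change 7.25, SE 0.64, adjusted p = 2.2e-06), *Cxcl10* had 374, 995 and 302 in the TEM libraries and 8.66, 18.7 and 3.72 in the naive libraries (log2 fold change 5.65, SE 0.54, adjusted p = 4.4e-06), and *Ccl1* had 152, 39.4 and 95.1 in TEM libraries and no naïve read (at least 90.8-fold higher).

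Of 25 genes of cytotoxic granules and NK cell receptors, 21 were higher (84%, against 24.7% of all genes) and 1 lower (4%, against 16.7%). *Nkg7*, a granule membrane protein, had 6925, 3794 and 6096 in the TEM libraries and 18.6, 48.2 and 8.37 in the naive libraries (log2 fold change 8.03, SE 0.52, adjusted p = 1.7e-07). *Klrk1*, which encodes NKG2D, had 1727, 1403 and 1564 in the TEM libraries and 2.47, 16.7 and 2.79 in the naive libraries (log2 fold change 7.99, SE 0.51, adjusted p = 1.5e-07). *Klrg1* had 1490.2, 663 and 1447 in the TEM libraries and 3.71, 12.8 and 0.93 in the naive libraries (log2 fold change 7.82, SE 0.80, adjusted p = 8.0e-06). *Klrb1c*, the gene of NK1.1, had 1403, 869.9 and 1639.7 in the TEM libraries and 3.71, 11.8 and 8.37 in the naive libraries (log2 fold change 7.25, SE 0.53, adjusted p = 4.5e-07). These NK receptors occur on NK cells, invariant NKT cells and effector T cells. *Gzmb* (6.28) and *Gzmk* (5.91) were higher.

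*Prf1*, the gene of perforin, was the member that was lower, with 2110.0, 834 and 1801 in the TEM libraries and 4279, 2632 and 3483 in the naive libraries (log2 fold change -1.21, SE 0.29, adjusted p = 0.00511). The 9 NK cell marker genes, of which 6 are also in the list above, summed to 11497, 6311 and 10589 in TEM and 4602, 3371 and 3786 in naïve libraries. *Prf1* made up most of each naïve sum but not of the TEM sums. Of the 9 genes, 8 were higher (88.9%, against 24.7% of all genes) and 1, *Prf1*, lower (11.1%, against 16.7%). The defining NK cell gene *Ncr1*, one of those that were higher, had 35.4, 6.21 and 56.1 in the TEM libraries and 0, 3.94 and 0 in the naive libraries (log2 fold change 3.86, SE 0.83, adjusted p = 0.00245). The part of NK cells in these values was not tested. Of 17 genes of γδ and invariant NKT cells, 14 were higher (82.4%, against 24.7% of all genes) and 1 lower (5.88%, against 16.7%). *Trav11d*, a segment of the invariant NKT receptor alpha chain whose reads cannot be told apart from those of the near-identical *Trav11*, had 2437, 1039 and 2329 in the TEM libraries and 125, 72.8 and 65.1 in the naive libraries (log2 fold change 4.41, SE 0.37, adjusted p = 1.4e-06). *Trgc2*, a constant segment of the receptor gamma chain, had 1670.2, 670.0 and 1260.4 in the TEM libraries and 6.18, 6.89 and 2.79 in the naive libraries (log2 fold change 7.55, SE 0.51, adjusted p = 2.2e-07), whereas *Trdc*, the delta constant gene, which lies inside the alpha locus, had 216, 258 and 189 in the TEM libraries and 568, 496 and 459 in the naive libraries (log2 fold change -1.20, SE 0.19, adjusted p = 3.0e-04).

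Of 21 co-inhibitory receptor genes, 15 were higher (71.4%, against 24.7% of all genes) and 0 lower (against 16.7%). Without naïve replicate 2 these counts were 16 and 1. *Pdcd1*, the gene of PD-1, had 8523, 16978 and 5521 in the TEM libraries and 184, 241 and 206 in the naive libraries (log2 fold change 5.47, SE 0.35, adjusted p = 1.4e-07). *Tigit* had 5066, 12339.8 and 4136 in the TEM libraries and 29.7, 64.9 and 25.1 in the naive libraries (log2 fold change 7.41, SE 0.48, adjusted p = 1.8e-07). *Lag3* had 4808, 17953 and 2849 in the TEM libraries and 80.4, 189 and 21.4 in the naive libraries (log2 fold change 6.48, SE 0.85, adjusted p = 5.9e-05). TEM replicate 2 was the highest of its group for all 3. *Ctla4* (3.38), *Cd160* (6.34), *Entpd1* (4.69), *Nt5e* (2.53) and *Tox2* (6.82) were also higher, and *Btla* (adjusted p = 0.54), *Vsir* (0.62) and *Cd5* (0.44) did not pass. Of 18 costimulatory receptors, 12 were higher (66.7%, against 24.7% of all genes) and 2 lower (11.1%, under the 16.7% of all genes). Both lower calls, *Cd27* and *Tnfrsf14*, were lost without TEM YFP+ replicate 3. *Icos* had 15579.7, 15349 and 11094 in the TEM libraries and 3129, 2736 and 1884 in the naive libraries (log2 fold change 2.45, SE 0.22, adjusted p = 2.5e-06) and *Tnfrsf4*, the gene of OX40, had 8804, 8620.1 and 5058 in the TEM libraries and 689, 687 and 469 in the naive libraries (log2 fold change 3.58, SE 0.26, adjusted p = 4.1e-07), while *Cd28* did not pass (adjusted p = 0.21).

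Of 17 follicular helper genes, 16 were higher (94.1%, against 24.7% of all genes). Their summed normalized counts were 88745, 160259 and 81574 in TEM libraries and 25257, 32271 and 24986 in naïve libraries, so TEM replicate 2 held clearly more than the other TEM libraries. *Ascl2*, which starts the follicular program, had 96, 392 and 55.1 in TEM libraries and no naïve read, and *Angptl2* had 4701, 11836 and 3549 in the TEM libraries and 33.4, 64.9 and 14.9 in the naive libraries (log2 fold change 7.46, SE 0.54, adjusted p = 3.9e-07). Of 19 regulatory T cell genes, 16 were higher (84.2%, against 24.7% of all genes) and 2 lower (10.5%, under the 16.7% of all genes). *Nrp1*, a surface marker of thymus-derived regulatory T cells, had 15340.1, 17375 and 13106 in the TEM libraries and 768, 777 and 725 in the naive libraries (log2 fold change 4.32, SE 0.18, adjusted p = 7.3e-09). The 2 that were lower were *Ecm1* (-2.21) and *Gpr83* (-1.06).

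Of 25 integrin and adhesion genes, 15 were higher (60%, against 24.7% of all genes) and 4 lower (16%, near the 16.7% of all genes). *Itgb1*, the beta chain of the VLA integrins, had 68290.0, 71595 and 63761 in the TEM libraries and 3416, 3027 and 2671 in the naive libraries (log2 fold change 4.49, SE 0.12, adjusted p = 2.3e-10). *Itgal* (1.37) and *Itga4* (1.17), the alpha chains of LFA-1 and VLA-4, were higher by less, and *Itgae*, the alpha chain that binds E-cadherin in epithelia, by 4.55. *Itga6* (-1.63), *Pecam1* (-1.09) and *Ly6c1* (-3.95) were lower, while *Ly6c2*, a close paralog of *Ly6c1*, was higher (2.54). Of 21 genes of S100 proteins, annexins, galectins and actin regulators, 17 were higher (81.0%, against 24.7% of all genes) and 0 lower. Without naïve replicate 2 these counts were 15 and 1. *S100a4* had 7459, 5802 and 7393 in the TEM libraries and 35.9, 88.5 and 57.7 in the naive libraries (log2 fold change 6.89, SE 0.25, adjusted p = 2.3e-09), *S100a6* had 7127, 7371 and 6281 in the TEM libraries and 49.5, 113 and 95.8 in the naive libraries (log2 fold change 6.39, SE 0.37, adjusted p = 7.0e-08) and *Ahnak*, a large scaffold protein, had 109021, 87997 and 97921 in the TEM libraries and 6912, 5628 and 4828 in the naive libraries (log2 fold change 4.10, SE 0.15, adjusted p = 2.9e-09).

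Of 27 genes of the T cell receptor complex and its proximal signalling, 7 were higher (25.9%, against 24.7% of all genes), 7 lower (25.9%, against 16.7%) and 13 did not pass, with a median of 0.057. *Cd3e* (adjusted p = 0.11), *Cd3d* (0.44), *Cd3g* (0.0979) and the kinase gene *Lck* (0.66) did not pass. The kinase gene *Zap70* (0.86), the phosphatase gene *Ptpn22* (1.13) and *Nfatc1* (1.30) were higher, and *Txk* (-1.19), *Prkcq* (-0.58) and *Dgka* (-1.23), a brake on diacylglycerol signalling, were lower.

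Immediate early genes respond to handling as well as to receptor signals. Of 30, 10 were higher (33.3%, against 24.7% of all genes) and 2 lower (6.67%, against 16.7%). Without naïve replicate 2 these counts were 9 and 1. Their summed counts were 191835, 323480.0 and 237192 in TEM libraries and 174133, 247677 and 192595 in naïve libraries, and replicate 2 was the highest in both groups. *Fos* had 1926, 14464 and 8127 in the TEM libraries and 1423, 6620.3 and 4838 in the naive libraries and did not pass (adjusted p = 0.44). *Dusp6* (6372, 5467 and 6833 in the TEM libraries and 1625, 1327 and 1599 in the naive libraries; log2 fold change 2.04, SE 0.13, adjusted p = 1.9e-07) and *Dusp4* (1179, 1289 and 1090.3 in the TEM libraries and 84.1, 147 and 99.5 in the naive libraries; log2 fold change 3.45, SE 0.18, adjusted p = 3.8e-08), phosphatases that restrain ERK, were higher with little variation between libraries. *Egr2* (2.26), *Nr4a2* (3.03) and *Dusp1* (1.82) were also higher, and *Cd69* was lower (-0.46).

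Of 41 cell cycle genes, 34 were higher (82.9%, against 24.7% of all genes) and 1 lower (2.44%, against 16.7%), with a median of 2.47. *Mki67* had 7785, 7145 and 10322 in the TEM libraries and 278, 453 and 292 in the naive libraries (log2 fold change 4.64, SE 0.22, adjusted p = 1.4e-08), *Top2a* had 5258, 5077 and 6462 in the TEM libraries and 523, 638 and 465 in the naive libraries (log2 fold change 3.37, SE 0.17, adjusted p = 2.2e-08) and *Rrm2*, a subunit of ribonucleotide reductase, had 1702, 1704 and 2412 in the TEM libraries and 146, 189 and 161 in the naive libraries (log2 fold change 3.53, SE 0.18, adjusted p = 2.2e-08). The mitotic genes *Ccna2* (4.52), *Aurkb* (4.55) and *Bub1* (4.27) were higher by more than the replication licensing genes *Mcm5* (1.03) and *Mcm6* (1.22), and *Mcm2* (adjusted p = 0.33), *Mcm4* (0.53) and *Mcm7* (0.1) did not pass. *Ccnd2* (adjusted p = 0.9) and *Cdkn1b* (0.95) did not pass either. The lower call, *Ccnd3*, was lost without naïve YFP+ replicate 3.

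Of 24 genes of glucose uptake and glycolysis, 12 were higher (50%, against 24.7% of all genes) and 3 lower (12.5%, under the 16.7% of all genes). The median was only 0.32, and 9 were higher without naïve replicate 2. *Hk2* (2.79), *Slc16a3*, the lactate exporter (2.69), and *Tpi1* (1.55) were higher, *Pdk1*, which holds pyruvate out of the mitochondria, was lower (7132, 4849.6 and 6406 in the TEM libraries and 28809.8, 21747 and 25134 in the naive libraries; log2 fold change -2.05, SE 0.15, adjusted p = 4.1e-07), and *Ldha* (adjusted p = 0.93) and *Pkm* (0.7) did not pass. Of 27 genes of cholesterol and fatty acid synthesis, 2 were higher (7.41%, against 24.7% of all genes) and 8 lower (29.6%, against 16.7%). Between 2 and 9 were lower when a YFP+ library was left out, with 2 without TEM replicate 2. *Scd2* (0.96) was higher in each of those fits.

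Of 36 interferon-stimulated genes, 8 were higher and 8 lower, 22.2% each, against 24.7% and 16.7% of all genes, so the list was near the share of all genes. *Mx1* had 275, 706 and 369.8 in the TEM libraries and 7.42, 53.1 and 10.2 in the naive libraries (log2 fold change 4.60, SE 0.65, adjusted p = 1.2e-04), *Oas1a* (1.73) and *Oas3* (1.11) were higher, and *Oas2* (83.9, 161 and 69.4 in the TEM libraries and 387, 1146 and 755 in the naive libraries; log2 fold change -2.82, SE 0.45, adjusted p = 3.1e-04), *Ifit2* (-1.27) and *Usp18* (-1.47) were lower. Of 25 survival and death genes, 14 were higher (56%, against 24.7% of all genes) and 5 lower (20%, near the 16.7% of all genes). *Bcl2l1* (1.65), *Casp1* (3.34), *Casp4* (3.23) and the near-identical copies *Bcl2a1b* (3.50) and *Bcl2a1d* (4.26), which reads may not tell apart, were higher, and *Bbc3*, the gene of PUMA (-1.51), was lower.

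Of 16 genes of purine and NAD sensing, 8 were higher (50%, against 24.7% of all genes) and none lower. *P2rx7*, the channel that extracellular ATP opens, had 11179.8, 9232 and 14239.9 in the TEM libraries and 728, 642 and 1060.3 in the naive libraries (log2 fold change 3.84, SE 0.25, adjusted p = 1.7e-07). Of 22 TGF-β signalling genes, 6 were higher (27.3%, near the 24.7% of all genes) and 8 lower (36.4%, against 16.7%). Between 5 and 9 were lower when a YFP+ library was left out. *Smad7*, a feedback inhibitor, had 4622, 4419 and 4742 in the TEM libraries and 15004, 14986 and 15023 in the naive libraries (log2 fold change -1.71, SE 0.074, adjusted p = 7.9e-09), *Tgfbr3* was lower (-1.75), and *Itgb8*, whose integrin releases active TGF-β, was higher (5.88). Of 17 chromatin and DNA methylation enzymes, 4 were higher and 3 lower (23.5% and 17.6%), which is near the 24.7% and 16.7% of all genes. *Ezh2* (1.46) and *Uhrf1* (2.67) were higher, *Tet1* (-2.01) and *Tet3* (-1.18) lower, and *Dnmt1* (adjusted p = 0.76) did not pass.

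**Figure D3:**
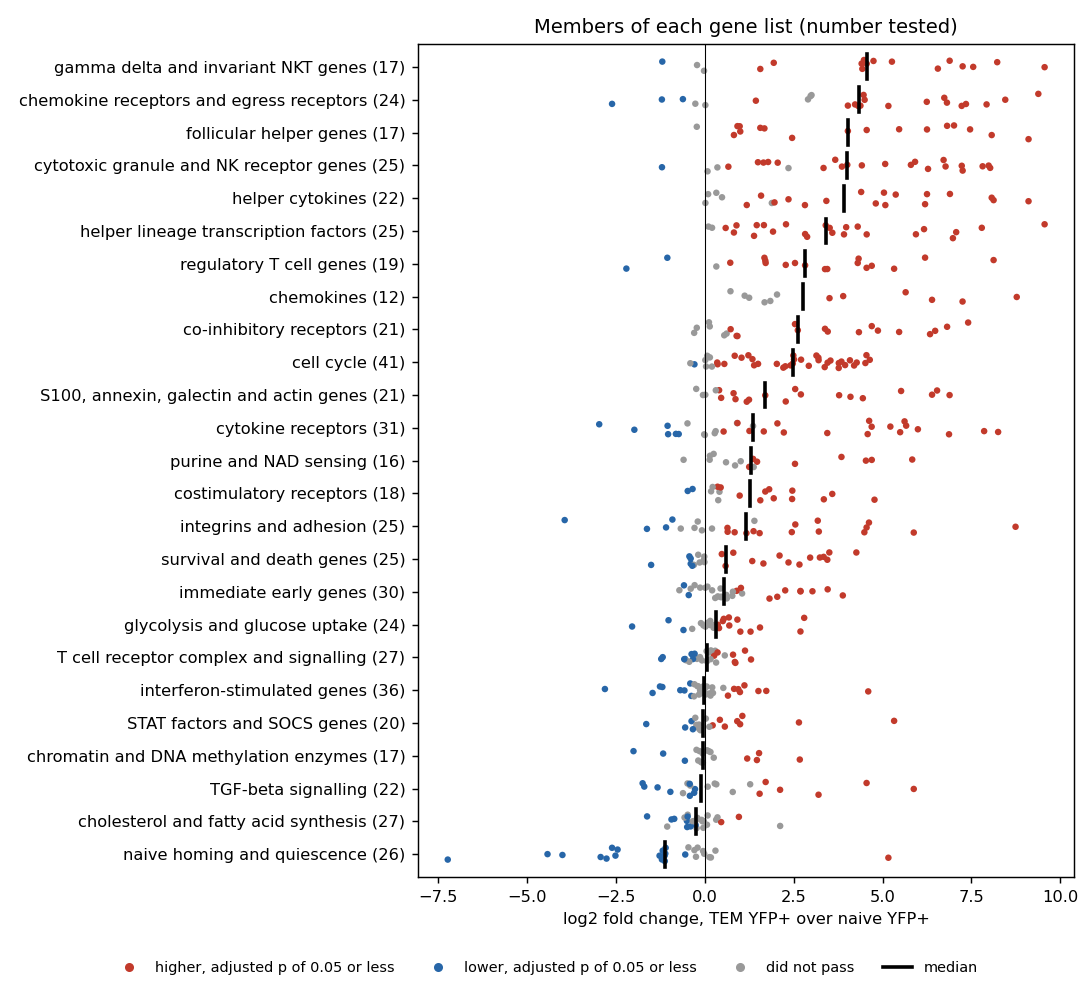
Log2 fold change, TEM YFP+ over naïve YFP+, of each tested member of 25 gene lists, sorted by the list median (black bar), with the number of members in parentheses. Red and blue points passed the adjusted p in the higher and lower direction and grey points did not. Medians run from -1.12 for naïve homing and quiescence to 4.55 for γδ and invariant NKT genes.

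Markers of other cell types had reads in both groups, and several of their sums differed between the groups or in single libraries. Summed normalized counts of the 17 monocyte and macrophage genes were 22084, 15352 and 16781 in TEM libraries and 1635, 10879 and 572 in naïve libraries. Of these genes 4 were higher by the adjusted p with all libraries (23.5%, near the 24.7% of all genes) and 17 without naïve replicate 2. Sums of the 9 erythroid genes were 3816, 1135 and 1438 in TEM and 1098, 4223 and 164 in naïve libraries, and of these genes none passed with all libraries and 2 were higher without naïve replicate 2. The 13 conventional dendritic cell genes, which include MHC class II, summed to 28539.9, 11326 and 23234 and 4126, 11666 and 4345 in the same order. Of these genes 10 were higher (76.9%, against 24.7% of all genes).

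The 8 plasma cell genes summed to 12070.5, 13112 and 9504 in TEM and 3619.8, 4838 and 2929.8 in naïve libraries, while the 16 B cell genes summed to 23828, 30652 and 25192 and 27713, 32694 and 27363 and did not separate the groups. Neutrophil genes summed to 5735, 2383 and 8572 in TEM and 27.2, 651 and 3.72 in naïve libraries. *Mmp9* made up most of each TEM sum but only a small part of the sums of naïve replicates 1 and 2. Of the 8 tested, 1 was higher with all libraries (12.5%, against 24.7% of all genes) and 5 without naïve replicate 2. *C1qa*, a macrophage gene, was at 619, 249 and 279 in the TEM libraries and 90.3, 664 and 13 in the naive libraries, and *Lyz2* was at 769, 587 and 808 in the TEM libraries and 103, 714 and 57.7 in the naive libraries. Of the 2 genes of CD8 T cells, *Cd8b1* was lower, with 314, 174 and 231 in the TEM libraries and 587, 441 and 465 in the naive libraries (log2 fold change -1.08, SE 0.24, adjusted p = 0.0034), whereas the *Cd8a* libraries overlapped and *Cd8a* did not pass (adjusted p = 0.95). The part of such cells or of their free RNA in the differences above was not tested.

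**Figure D4:**
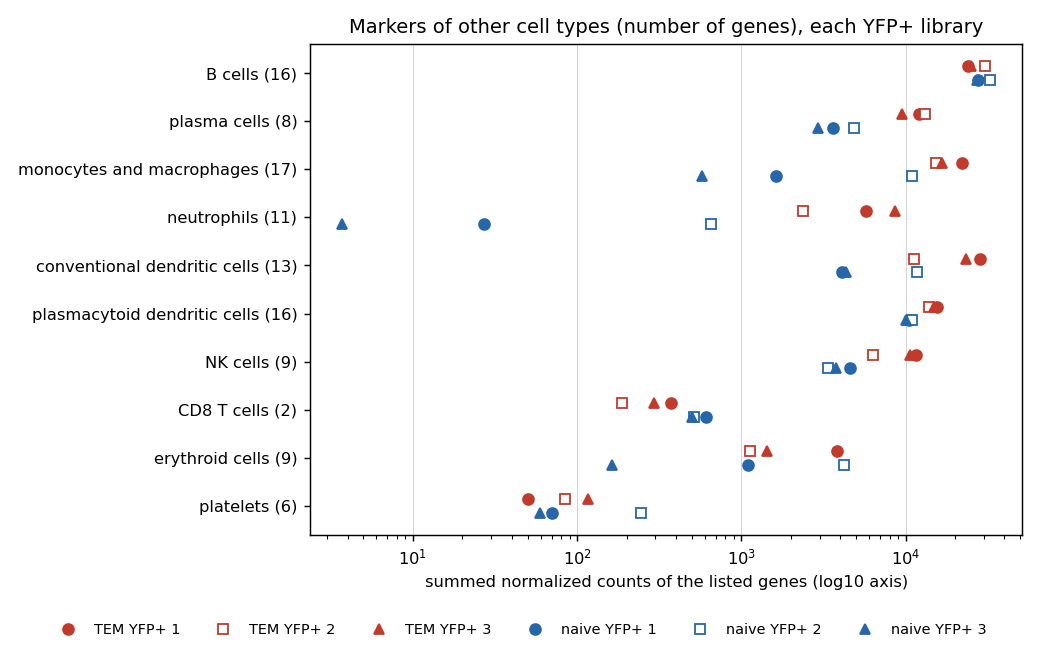
Summed normalized counts of marker genes of other cell types in each YFP+ library on a log10 axis, with TEM libraries in red and naïve libraries in blue and the number of genes in the table in parentheses. Naïve replicate 2 (open blue square) lies above the other naïve libraries for monocytes and macrophages, neutrophils, dendritic cells and erythroid cells. The naïve sums of NK cell genes are mostly *Prf1*.

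The same comparison in YFP- cells, which shares no library with it, asked whether the memory against naïve difference depended on the GM-CSF history. There 3301 genes were called higher and 819 lower. Genes called higher in both numbered 2284, or 90.0% of those in YFP+ and 69.2% of those in YFP- cells, and 534 were called lower in both, or 68.4% and 65.2%. Log2 fold changes correlated across the 15587 genes at Pearson's r of 0.838, as a description. The interaction, the YFP+ difference minus the YFP- difference, was called for 483 genes, 3.1% of those tested, 101 above 0 and 382 below. By the adjusted p alone, 554 genes (3.55%) passed. Without replicate 3 in every group no gene was called by limma, and 1142 genes had an unadjusted p under 0.05, against 1828 with all libraries.

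The positive interactions were led by *Slc27a6*, a fatty acid transporter. In YFP+ cells it had 1747, 807 and 1709 in the TEM libraries and 2.47, 8.85 and 2.79 in the naive libraries, and in YFP- cells 36.9, 43.7 and 29.5 in TEM and 13.8, 12.7 and 9.22 in naïve libraries (interaction 6.50, SE 0.63, adjusted p = 9.1e-04). *Cntn1*, a neuronal adhesion protein, had 317, 143 and 256 in TEM YFP+ and 3.28, 1.48 and 3.06 in TEM YFP- libraries (interaction 6.39, SE 0.73, adjusted p = 0.00233). *Aqp9*, a channel for water and glycerol, had 1782, 787 and 1916 and 52.5, 35.6 and 54 (interaction 4.77, SE 0.57, adjusted p = 0.00248). In all 3, the YFP+ TEM libraries stood clear of the other 9 libraries.

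Genes of innate-like T cells followed. *Trav11d* had 2437, 1039 and 2329 in TEM YFP+ and 135, 89.7 and 127 in TEM YFP- libraries (interaction 4.14, SE 0.52, adjusted p = 0.00248), and *Trgc4* had 721, 387 and 661 and 74.6, 34.8 and 35.7 (interaction 3.99, SE 0.72, adjusted p = 0.00995). *Klrc1*, which encodes NKG2A, had 443, 210.2 and 247 and 4.92, 5.19 and 4.07 (interaction 4.72, SE 0.97, adjusted p = 0.0191), and reads may be shared with *Klrc2*. The interaction was also positive for *Zbtb16* (3.98, adjusted p = 0.035), *Cxcr6* (2.82, adjusted p = 0.00919), *Xcl1* (3.34, adjusted p = 0.0161), *Igf2* (3.89, adjusted p = 0.0426) and *Trgc1* (3.89, adjusted p = 0.0161). For *Csf2*, TEM YFP- libraries held 2.46, 0.741 and 2.04 and naïve YFP- libraries 0, 0 and 3.46 (interaction 4.40, SE 0.96, adjusted p = 0.0255). The YFP mark is set by transcription of the *Csf2* allele, so the sort selected on *Csf2* history and this interaction is no independent finding. When single libraries were left out, the highest adjusted p was 0.1 for *Zbtb16*, 0.11 for *Igf2*, 0.074 for *Csf2*, 0.0583 for *Klrc1*, 0.0536 for *Xcl1* and 0.0509 for *Trgc1*, and it stayed under 0.05 for the other genes of this and the preceding paragraph.

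The negative interactions included genes of dendritic cells. *Siglech*, a marker of plasmacytoid dendritic cells, had 118, 26.9 and 55.1 in TEM YFP+ and 3367, 1412 and 3263 in TEM YFP- libraries (interaction -6.46, SE 1.36, adjusted p = 0.0214), with an adjusted p of up to 0.0698 when a library was left out. *Klk1* had 46.5, 7.25 and 14.3 and 1149.9, 528 and 1052 (interaction -6.72, SE 0.98, adjusted p = 0.00433), and *Csf2rb2*, a receptor chain for IL-3, had 137, 35.2 and 96 and 2031, 1113 and 2071 (interaction -6.71, SE 1.14, adjusted p = 0.00805). *Cyp27a1* (-6.75), *Nlrp3* (-6.48), *Cox6a2* (-6.41), *Scel* (-6.40) and *Ear2* (-6.16) behaved alike. Of the 16 plasmacytoid dendritic cell genes, 13 passed the interaction, 12 of them below 0, and of the 13 conventional dendritic cell genes, 12 passed, all below 0. Over all genes tested, 3.55% passed the interaction by the adjusted p. These genes were higher in TEM YFP- than in TEM YFP+ libraries, and the part of dendritic cells in those libraries was not tested.

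In 7 genes the 2 comparisons were called in opposite directions, lower in TEM cells with the YFP mark and higher in those without it. *Gsn*, the actin-severing protein gelsolin, had 1451, 1348 and 1132 in the TEM libraries and 3459, 2577 and 2704 in the naive libraries among YFP+ cells and 6613, 5576 and 8385 in TEM against 3321, 2567 and 2885 in naïve YFP- cells (interaction -2.36, SE 0.23, adjusted p = 9.1e-04). *Card9*, an adaptor of myeloid pattern recognition receptors, had 27.3, 20.7 and 25.7 in the TEM libraries and 163, 212 and 127 in the naive libraries among YFP+ cells, and 331, 263 and 567 in TEM against 164, 228 and 156 in naïve YFP- cells (interaction -3.73, SE 0.43, adjusted p = 0.00233). *Amz1* (-3.64) and *Pid1* (-3.45) behaved in the same way. *Plpp7* had no read in the TEM YFP+ libraries and at most 5.58 normalized counts in the naïve ones (at least 5.15-fold lower). For *Slc36a3* and *Pdzd4* the YFP+ difference did not pass in every fit with a library left out, with adjusted p of up to 0.0964 and 0.0871.

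**Figure D5:**
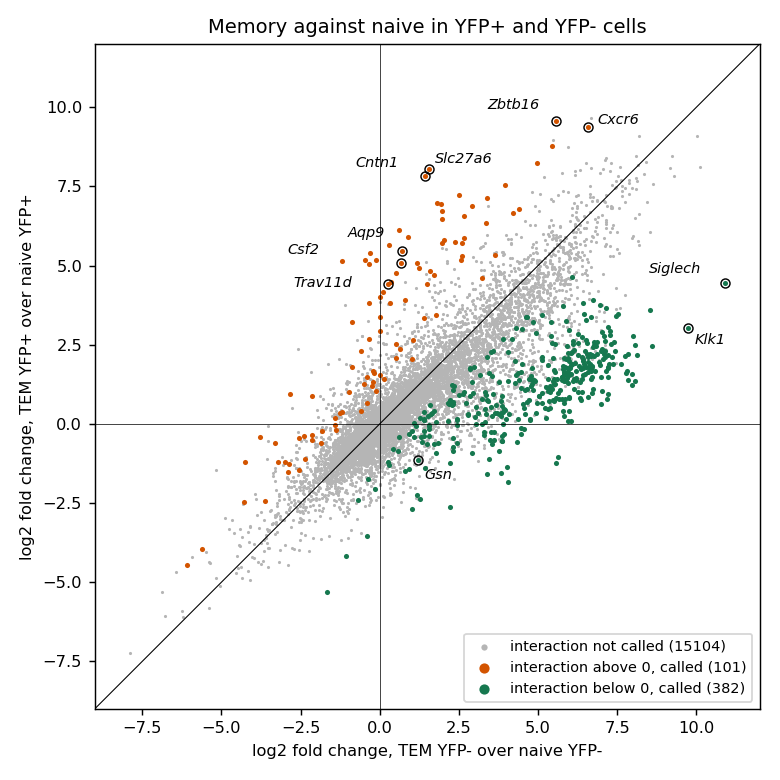
Log2 fold change of TEM over naïve cells for each of 15587 genes in YFP- cells (x axis) and YFP+ cells (y axis), with the line marking equal changes. Orange points are the 101 genes with a called interaction above 0 and green points the 382 below 0, and most grey points lie along the line.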

How the data were processed

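CD4+ T cells were sorted from spleen into YFP+ and YFP- naïve and TEM cells, 3 libraries each, and total RNA was sequenced from stranded libraries. Per the labels, reads were mapped with DRAGEN to mm10 and DESeq2 was used. Versions, annotation and strand setting are not given in the sources used here. The authors deposited 1 table of normalized counts (a signal, reads divided by a size factor) for 17523 genes, and 0 of its columns were left unused. All values (100%) were whole multiples of the value of 1 read within 0.01, so reads could be recovered. Entrez identifiers gave a RefSeq symbol for 16749 genes, and 774 had none.

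Genes that reached 5 normalized counts in 3 or more libraries were tested with limma 3.58.1 (R 4.3.3) on log2 of the value plus 1, with a variance trend and the 4 groups as means (8 residual degrees of freedom). Fold changes of genes near 0 depend on the 1 added. Called genes had an adjusted p of at most 0.05 with a log2 fold change of at least 1 in either direction, and genes named singly were judged by the adjusted p. With 3 libraries a side, the smallest p of an exact permutation test is 0.10, so none was used. edgeR 4.0.16 and DESeq2 1.42.0 on recovered reads, other scalings, filters and added values, the replicate block and leaving out each library were alternatives. The script was tested on simulated data.

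Members and gene lists were chosen with earlier results of these data known. Named genes were the 15 largest increases and decreases among called, non-overlapping genes whose mean reached 50 normalized counts, members of the lists, the 10 largest interactions in each direction, and genes called in opposite directions in YFP+ and YFP- cells. The labels do not say that equal replicate numbers share an animal. The study names as many mice as a group has libraries, and *Xist* and *Ddx3y* were alike by number in all groups. Equal numbers may therefore share an animal. Correlations of same-numbered deviations were 0.204, -0.020 and 0.056, and the main fit did not use the numbers as pairs. These correlations cannot exclude shared animals, because the deviations also hold variation between libraries. The fit with the replicate number as a block called 3476 genes and 593 interactions, against 3319 and 483. Results for some genes are not reported here.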

Additional observations from a re-analysis of the deposited data

Results flagged for a closer look

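The memory against naïve difference was not the same in YFP+ and YFP- cells for 483 genes, by limma's test of the interaction (adjusted p of at most 0.05, with a value of at least 1 in either direction on the log2 scale). Without replicate 3 in all groups no gene was called. Of the genes described above, those with an adjusted p of 0.05 or less are listed here with their interaction on the log2 scale. The value for *Csf2* is no independent finding, because the YFP mark itself depends on *Csf2* transcription. The difference was larger in YFP+ cells, or less far below 0, for *Slc27a6* 6.50, *Cntn1* 6.39, *Aqp9* 4.77, *Klrc2* 4.76, *Klrc1* 4.72, *Csf2* 4.40, *Trav11d* 4.14, *Trav11* 4.11, *Trgc4* 3.99, *Zbtb16* 3.98, *Igf2* 3.89, *Trgc1* 3.89, *Trgc2* 3.60, *Xcl1* 3.34, *Prf1* 3.04, *Cd160* 2.97, *Cxcr6* 2.82, *Ccr9* 2.59, *Satb1* 1.84, *Txk* 1.80, *Fasl* 1.71, *Socs2* 1.69, *Il2ra* 1.68, *Ly6c1* 1.65, *Cnn3* 1.64, *Il2rb* 1.40 and *Il12rb1* 1.00. It was smaller in YFP+ cells, or farther below 0, for *Cyp27a1* -6.75, *Klk1* -6.72, *Csf2rb2* -6.71, *Nlrp3* -6.48, *Siglech* -6.46, *Cox6a2* -6.41, *Scel* -6.40, *Ear2* -6.16, *Plpp7* -4.83, *Card9* -3.73, *Amz1* -3.64, *Pdzd4* -3.47, *Pid1* -3.45, *Slc36a3* -2.82, *Gsn* -2.36, *Mki67* -1.43, *Top2a* -1.29, *Uhrf1* -1.22 and *Il10ra* -0.77.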

How the results depend on the processing

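For the 3319 genes called, edgeR gave 2419 higher and 777 lower genes and DESeq2 2460 and 784. A log2 fold change of at least 2 in either direction left 2020 genes, 258 of them lower, and no fold threshold gave 6453, 3849 higher and 2604 lower. Quantile normalization gave 2043 lower genes. The 483 called interactions ranged from 255 without TEM YFP- replicate 3 to 480 when single libraries were left out, with 318 without TEM YFP- replicate 1, and limma called 0 without replicate 3 in all groups, where 1142 had an unadjusted p under 0.05. Over all genes of the lists and the naming rule, with *Xist* and *Ddx3y*, 17740 log2 fold changes under an alternative stayed on their side of the threshold, 374 newly passed, 502 no longer passed and 3 turned, all under quantile normalization, *Il7r* at 0.43, *Il2rg* at 0.21 and *Lck* at 0.29. Medians of some lists turned as well, that of TGF-β signalling to 0.095 without TEM YFP+ replicate 2 (lowest -0.35 when a library was left out), of B cell genes to 0.041 without naïve YFP+ replicate 2 and 0.0019 without TEM YFP+ replicate 2 (lowest -0.67), of neutrophil genes to -0.035 with edgeR and -0.011 with DESeq2, and of erythroid genes to -0.32 without naïve YFP+ replicate 3 and -0.15 without replicate 3 in all groups (highest 2.44). The causes were not tested.

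With the replicate number as a block, 3476 genes were called, 2646 higher and 830 lower, among them 3314 of the 3319, and 593 interactions. Of the 3 TEM libraries, 1 correlated best with the naïve library of its own number.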

Other observations

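The libraries of the TEM group were not alike. In TEM YFP+ replicate 2, 359 of the 2538 genes called higher lay more than 1 on the log2 scale above the mean of TEM replicates 1 and 3 and 229 lay more than 1 below it. Among all 15587 genes these numbers were 924 and 938. Genes of follicular helper cells and co-inhibitory receptors were on the high side in it (summed counts of co-inhibitory receptors were 121637, 172947 and 114692 in the TEM libraries), and *Zbtb16*, *Cxcr6*, *Ccr9* and *Aqp9* were on the low side.

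Differences in the genes that took the most reads did not pass the test for these 2 genes. *Eef1a1*, an elongation factor, had 548721, 422588 and 433238 in the TEM libraries and 911751, 620860.0 and 677995 in the naive libraries (adjusted p = 0.0852), and *Actb*, cytoskeletal actin, had 392572, 326691 and 397007 in the TEM libraries and 425525, 299466 and 401590.0 in the naive libraries (adjusted p = 0.99). The 10 genes with the most reads took 5.55 to 5.96% of reads in TEM YFP+ libraries and 6.63 to 7.75% in naïve YFP+ libraries.

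Calls were most frequent among genes of low to middling counts. When the tested genes were ranked by mean count and split into 5 bins of about equal size, 678 were called higher and 168 lower in the lowest, 1037 and 263 in the next, 439 and 147 in the middle, 225 and 91 in the next, and 159 and 112 in the highest.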
